A study of Mus musculus with 8 samples.

Results

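The genes described here are the extracellular and core intracellular components of Wnt signalling, measured in the striatum of newborn mice that lack the transcription factor Ctip2. They are the Wnt ligands, the Frizzled, Lrp5/6, Ror and Kremen receptors, the secreted Sfrp, Dkk and Wif1 inhibitors, beta-catenin with Apc and the Axins, and the TCF/LEF factors, all taken by gene symbol from the array's annotation. They comprised 104 of 45037 probe sets and 50 genes: 19 ligands, 9 secreted inhibitors, 15 receptors, 4 genes of beta-catenin and its destruction complex and 3 TCF/LEF factors. Tcf7 and Kremen2, which the rule also names, were not analysed here because no probe set carried either symbol alone. The arrays were hybridised with RNA of 4 Ctip2 null mutant mice, 1 Ctip2 heterozygote and 3 wild type mice, 1 animal each, all of strain BALB/c at postnatal day 0. The tissue was a punch of 500 µm diameter from the middle of the striatum in slices 300 µm thick, so each array averages every cell type in the punch. The sources used here do not describe how the null allele was made, and littermate relations among the animals are likewise unstated.

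Wnt ligands are secreted lipid-modified glycoproteins that bind Frizzled receptors, together with Lrp5 or Lrp6 in the branch that stabilises beta-catenin. Without ligand, a complex built on Axin and Apc marks beta-catenin for degradation; with ligand, beta-catenin accumulates and acts on genes bound by TCF/LEF factors. Sfrp and Wif1 proteins bind Wnts outside the cell, whereas Dkk proteins with Kremen act on Lrp5 and Lrp6. In the developing forebrain, Wnts come mainly from the dorsal midline and the pallium, and secreted inhibitors help to keep the ventral side, from which the striatum arises, under different exposure.

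Ctip2 itself, listed as Bcl11b, was lower in every null than in every wild type array on each of its 4 probe sets, by 2.16-fold to 3.16-fold. Of 8 measured markers of medium spiny neurons, the main striatal cell type, all 8 had means above the median probe set. Of these, 3 were called lower in null striatum, namely Ppp1r1b by 2.46-fold, Pde10a by 2.06-fold and Drd1 by 1.91-fold, where 0.676% of all genes were lower. The other 5 were not called: Drd2, Foxp1 and Rgs9 had negative differences, and Tac1 and Penk positive ones of 0.14 and 0.21. The log2 of the mean signal of the 8 was 10.24 to 10.55 in null, 11.07 in the heterozygote and 10.53 to 10.64 in wild type arrays. Choroid plexus RNA differed within groups: the log2 of the mean signal of 11 of its markers ran between 5.73 and 10.07 in null arrays, stood at 5.77 in the heterozygote and ran between 6.76 and 9.97 in wild type arrays, highest in null 2 and wild type 1. Ttr alone dominates this mean signal where it is high. It read 7.11 to 13.44 in null, 7.44 in the heterozygote and 9.38 to 13.34 in wild type arrays. The SD of all log2 values of an array was 1.90 to 2.05 in null mice, 2.06 in the heterozygote and 1.84 to 1.97 in wild type mice. Values below are RMA log2 expression, so a difference of 1 is a 2-fold change, and levels of different probe sets are not compared with each other.

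Few of these genes were called different between null and wild type striatum, as was so for all probe sets. A probe set was called when its Benjamini-Hochberg adjusted p in limma, taken over all 45037 probe sets, was below 0.05. By that rule 1 of the 104 member probe sets was higher in null striatum, against 1.87% of all probe sets, and 0 were lower, against 0.453%. At an unadjusted p of 0.05, 9 members were higher (10.9% of all probe sets) and 10 lower (8.74%). The SAM score beyond 2, a looser threshold, gave 9 higher members (11.3% of all probe sets) and 17 lower (16.2%). The study's design also names a SAM cutoff of 2, but the study selected 153 genes. Here 5109 probe sets scored above 2 and 7293 below -2, so the score beyond 2 here is not the study's selection. All 4 null arrays lay above all 3 wild type arrays on 5 members, against 7.7% of all probe sets, and below them on 15, against 8.85%. The median difference over the members was -0.08, as it was over all probe sets. For 99 of the 104 the 95% interval of the difference, not adjusted for the number tested, lay between -1 and 1, so that a 2-fold difference was outside it, and the same held for 89.6% of all probe sets.

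**Figure D1:**
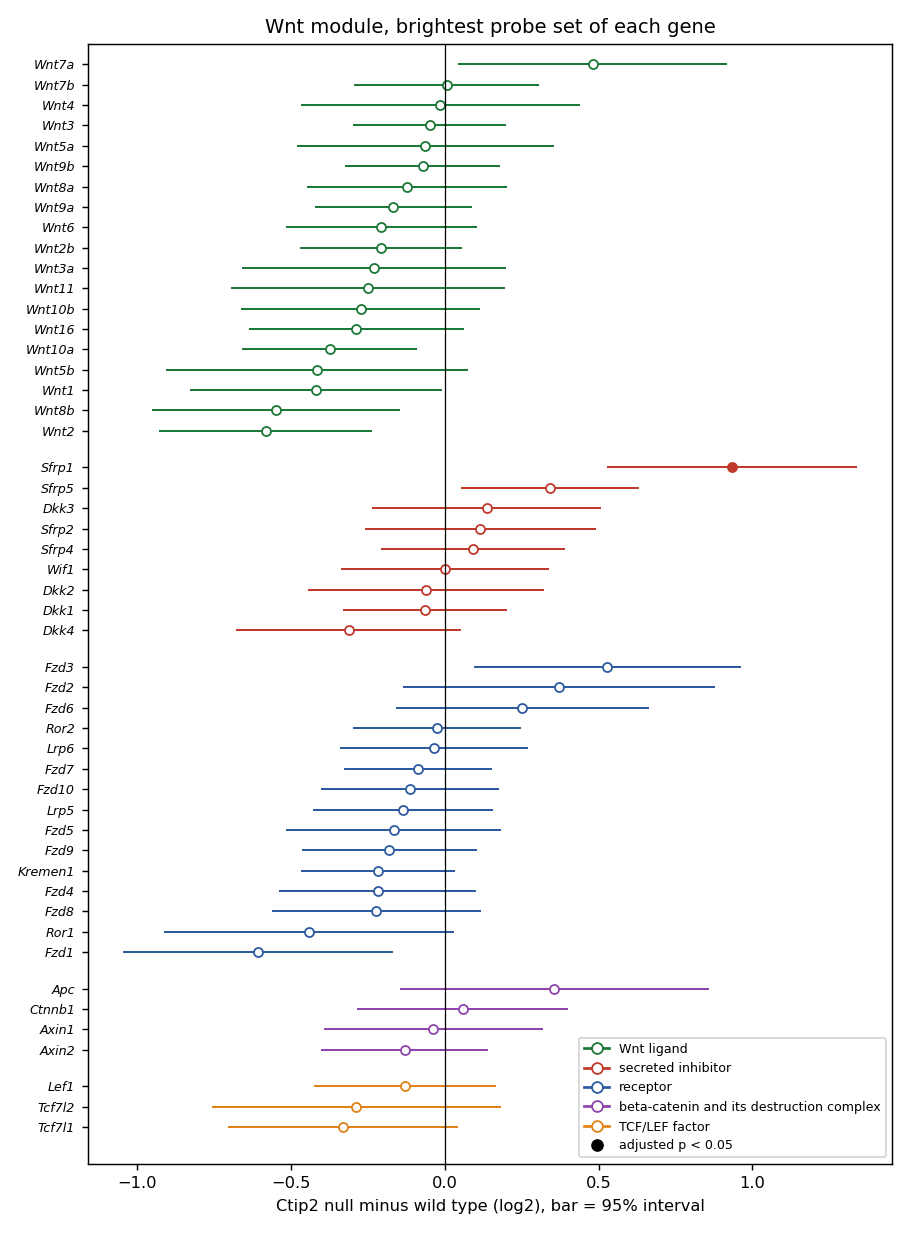
Difference between null and wild type striatum (x axis, log2) for the brightest probe set of each of the 50 genes, coloured by role, with bars for the 95% interval. Sfrp1, with a filled circle at 0.93, is the single gene past the adjusted threshold.

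The called probe set belongs to Sfrp1, which encodes a secreted Frizzled-related protein that binds Wnts and limits their access to receptors. On this probe set, 1428136_at, the null arrays read 8.39, 8.73, 8.56 and 8.17, the heterozygote 7.99 and the wild type arrays 7.80, 7.59 and 7.20. The lowest null array thus stood above the highest wild type array, with the heterozygote between them. Sfrp1 rose 1.91-fold, with a difference of 0.93 (95% interval 0.53 to 1.34, limma adjusted p = 0.0300). Since the tissue is a mixture, more cells that express the gene and more RNA per cell cannot be told apart.

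The other 4 Sfrp1 probe sets had positive differences of unequal size, and none of them was called; under quantile normalization the sign of 1438620_x_at turned. Probe set 1460187_at read 5.84, 6.34, 5.57 and 5.67 in null arrays, 5.42 in the heterozygote and 4.82, 5.37 and 4.29 in wild type arrays, a difference of 1.03 (limma adjusted p = 0.0751). Here too every null array exceeded every wild type array, although the wild type SD was 0.54. On 1448395_at the null arrays read 7.09, 7.48, 7.53 and 7.20, the heterozygote 6.88 and the wild type arrays 6.70, 6.92 and 6.99, a difference of 0.45 (limma adjusted p = 0.157). Groups were again apart, and here the heterozygote sat among the wild type arrays. Probe set 1416594_at differed by 0.34 (limma adjusted p = 0.244), with null 3 at 7.12 just below wild type 2 at 7.13. The fifth, 1438620_x_at, differed by 0.06 with an interval of -0.18 to 0.31, and its suffix marks a design whose probes may also match other transcripts.

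**Figure D2:**
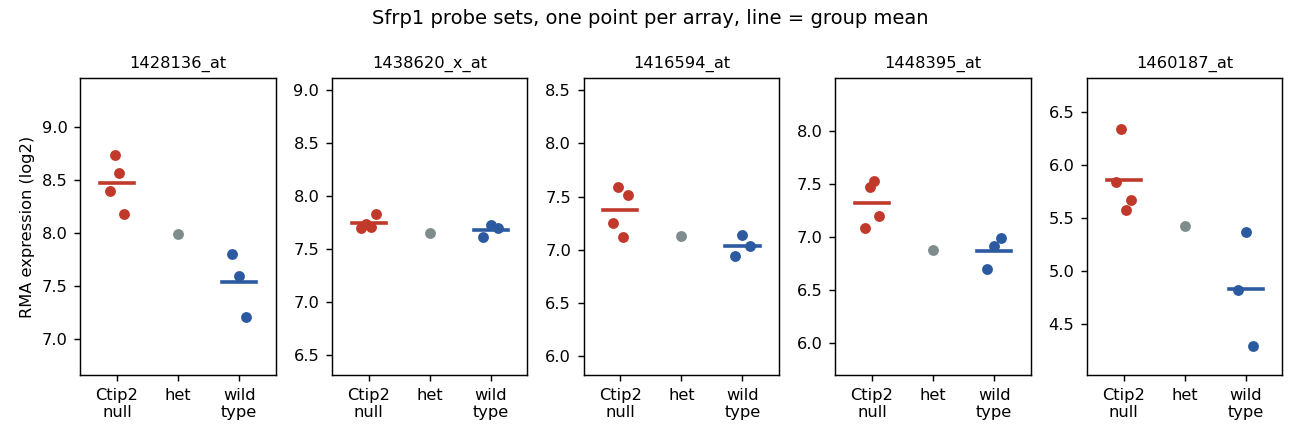
RMA log2 expression of the 5 Sfrp1 probe sets (1 panel each, all spanning the same log2 range) in the 4 null, 1 heterozygote and 3 wild type arrays, with points for arrays and lines for group means. On 3 of the 5 panels every null array lies above every wild type array; on 1438620_x_at the group means are 7.75 and 7.68.

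The Sfrp1 call depended on single animals. Leaving out wild type 2 or 3 gave 1428136_at an adjusted p of 0.0973 or 0.119, and leaving out null 1, 2 or 3 gave 0.0759, 0.0958 or 0.0679, with differences of 0.77 to 0.96 in these fits. It was 0.112 with the heterozygote among the controls, where the difference was 0.82, and 0.161 with the SD of each array as a covariate, where it was 0.66. Of 11 ventricular zone and radial glia markers, Sox2 was called higher in null striatum and 10 were not called, with 5 positive and 6 negative differences and a median of -0.03. The log2 of their mean signal, which the brightest markers such as Fabp7 dominate, was 9.53 to 9.70 in null, 9.63 in the heterozygote and 9.24 to 9.45 in wild type arrays, and the part of such cells in the Sfrp1 result was not tested. Marker sets of neighbouring tissue and other cells gave, on the same scale, 7.61 to 8.22 in null, 8.21 in the heterozygote and 6.99 to 7.61 in wild type arrays for septum and preoptic area (9 genes). Of these 9, Lhx6 was called higher, and 5 differences were positive and 4 negative, with a median of 0.07. The brightest of them, Lhx6 and Lhx8, differed by 1.06 and 1.34 and dominate that mean signal. Microglia (8 genes) stood at 7.82 to 8.30 in null, 7.61 in the heterozygote and 7.45 to 7.66 in wild type arrays. Endothelium and pericytes (12 genes) stood at 7.80 to 8.30 in null, 8.17 in the heterozygote and 7.65 to 7.82 in wild type arrays. Meninges (12 genes) stood lower, at 5.96 to 6.18 in null, 5.86 in the heterozygote and 6.20 to 6.26 in wild type arrays. Pallial projection neurons (9 genes) did so too, at 5.66 to 5.92 in null, 5.52 in the heterozygote and 5.93 to 6.08 in wild type arrays. Only 3 of the 12 meninges genes and 2 of the 9 pallial genes had means above the median probe set. Of all probe sets below that median, 75.0% had a negative difference. Null and wild type arrays overlapped for thalamus and habenula (10 genes, Calb2 called higher), astrocytes and oligodendrocyte lineage (9 genes) and red blood cells (4 genes). No gene of the microglia, endothelium, meninges or pallial lists was called, and the part of these cells in the Sfrp1 result or in the ligand values below was not tested.

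Among the other secreted inhibitors, none was called. Sfrp5, of the same family, read 7.80, 8.05, 7.70 and 7.86 in null arrays, 7.33 in the heterozygote and 7.39, 7.59 and 7.55 in wild type arrays on its brighter probe set. All null arrays were above all wild type arrays by a narrow margin, with a difference of 0.34 (limma adjusted p = 0.200), while its other probe set differed by 0.0027. Dkk4, which encodes a ligand of Lrp5 and Lrp6 that blocks their use by Wnts, differed by -0.31 with overlapping groups (limma adjusted p = 0.305), by -0.06 with the array SD as a covariate and by -0.17 without wild type 2. Sfrp2 read 6.28 to 6.84 in null arrays, 7.47 in the heterozygote and 6.15 to 6.60 in wild type arrays, so that the heterozygote was the highest of the 8 arrays. For the remaining inhibitors Sfrp4, Dkk1, Dkk2, Dkk3 and Wif1, differences on the brightest probe set lay between -0.06 and 0.14.

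None of the 19 ligand genes was called, and most of their probe sets read slightly lower in null striatum. Over 32 ligand probe sets 28 had a negative and 4 a positive difference, and the median was -0.21. The difference was largest in size for Wnt2, which in other mouse tissues is known from lung and vascular development. Wnt2 read 5.25, 5.13, 5.20 and 5.53 in null arrays, 5.67 in the heterozygote and 5.59, 6.06 and 5.93 in wild type arrays. Groups did not overlap, and the difference was -0.58 (95% interval -0.93 to -0.24, limma adjusted p = 0.0884). Wnt2 passed the threshold without wild type 1 (0.0371) or without null 4 (0.0439), and gave 0.177 to 0.291 without any other single array. With the array SD as a covariate its difference was -0.33 (adjusted p = 0.373).

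Wnt8b, a marker of the dorsal midline of the embryonic forebrain, read 5.990, 5.75, 5.47 and 5.92 in null arrays, 5.83 in the heterozygote and 6.004, 6.39 and 6.60 in wild type arrays on its brightest probe set. The highest null array was just below the lowest wild type array, and the difference was -0.55 (limma adjusted p = 0.152), and -0.27 with the array SD as a covariate. Wnt7a, a ligand made by neural progenitors and some neurons that also acts on brain vessels, was the ligand with the largest positive difference. Its brightest probe set read 9.07, 8.86, 8.67 and 8.99 in null arrays, 8.90 in the heterozygote and 8.89, 8.10 and 8.26 in wild type arrays. Wild type 1 fell within the null range, and the difference was 0.48 (limma adjusted p = 0.222, and 0.0382 without wild type 1). The other 2 Wnt7a probe sets differed by -0.24 and -0.23, so the probe sets of this gene did not point 1 way. Wnt3a and Wnt7b, the canonical ligands of the cortical hem and the cortex, differed by -0.23 and 0.01 on their brightest probe sets.

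The small downward shift of the ligands varied between arrays, in nearly the order of their spread of values. Taken as the median over the 32 ligand probe sets of the array's value minus the wild type mean, it was -0.15, -0.23, -0.32 and -0.06 in null 1 to 4, -0.38 in the heterozygote and -0.14, 0.05 and 0.03 in wild type 1 to 3. Ordered by the SD of all their log2 values, the 8 arrays fell in the same order by this shift, except that wild type 1 and null 1 changed places. Probe sets with a mean below the median of all probe sets, which was 6.30, moved likewise, with medians of -0.11, -0.18, -0.18 and -0.02 in null 1 to 4, -0.20 in the heterozygote and -0.10, 0.06 and 0.03 in wild type 1 to 3. Of the ligand probe sets 23 of 32 lie below that median, and over all 22519 probe sets below it 75.0% had a negative difference. Among the ligands below it the share was 91.3%, with a median difference of -0.23, against -0.13 for all probe sets below it. Above it, 7 of 9 ligand probe sets were negative, with a median of -0.17, where 48.9% of all probe sets were negative, with a median of 0.01. With the SD of each array as a covariate the ligand median was -0.03, against -0.21 without it. The array SD was 1.90 to 2.05 in null and 1.84 to 1.97 in wild type arrays, so it is partly confounded with genotype. The covariate fit therefore cannot tell signal spread and genotype apart, and the part of either in the ligand shift was not tested.

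**Figure D3:**
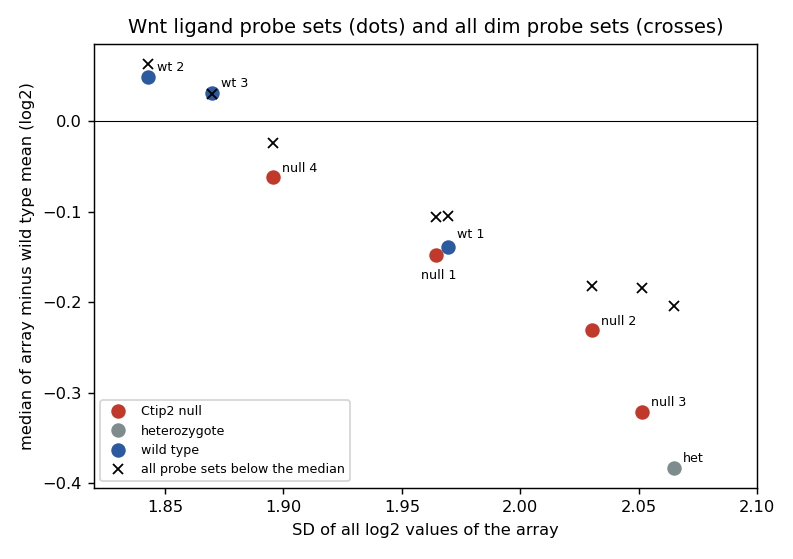
Median of array value minus wild type mean (y axis, log2) for the 32 Wnt ligand probe sets (dots) and for all probe sets below the median level (crosses), against the SD of all log2 values of the array (x axis), for 4 null, 1 heterozygote and 3 wild type arrays. The heterozygote, with the widest spread of 2.06, has the lowest ligand value of -0.38.

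**Figure D4:**
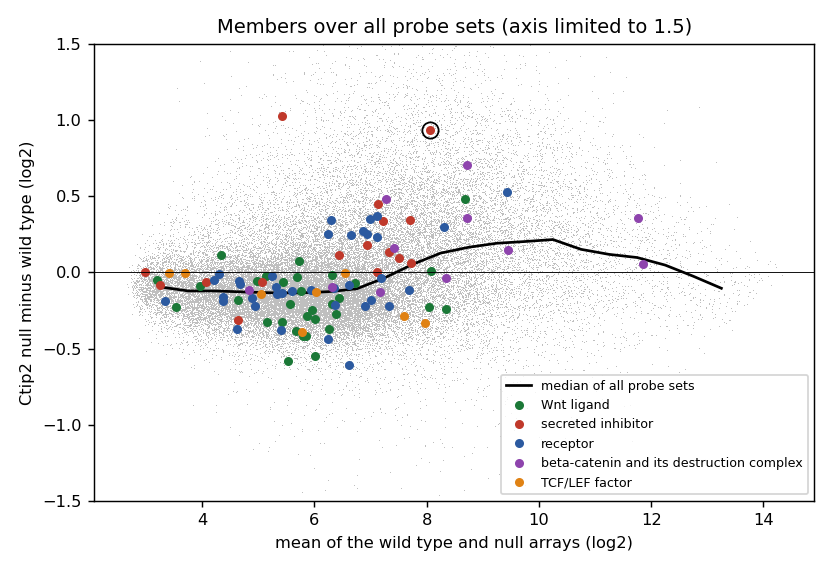
Difference between null and wild type striatum (y axis, log2) against the mean of the 7 arrays (x axis, log2) for all probe sets (grey) with the 104 members coloured by role, and the median of all probe sets in bins of level as a line. Members of low level sit mostly below 0, as the line does, and the called Sfrp1 probe set is ringed at 0.93.

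Several ligand genes are neighbours in pairs in the mouse genome (RefSeq gene order, GRCm38.p6), a remnant of old duplications. By the brightest probe set, 17 of the 19 ligand genes had a negative difference, and so did both genes of each pair, without a call: Wnt6 and Wnt10a by -0.21 and -0.37, Wnt3a and Wnt9a by -0.23 and -0.17, Wnt9b and Wnt3 by -0.07 and -0.05, and Wnt10b and Wnt1 by -0.27 and -0.42. On these probe sets every null array was below every wild type array for Wnt10a and Wnt9a, and the groups overlapped for the other genes. The dimmer probe sets of Wnt6 and Wnt9b also had every null array below every wild type array.

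No receptor gene was called on any of 37 probe sets. Fzd3, a Frizzled required in mice for axon tracts of the forebrain, was the receptor with the largest positive difference, with 9.64, 9.70, 10.04 and 9.22 in null arrays, 9.82 in the heterozygote and 9.35, 9.11 and 8.91 in wild type arrays. Null 4 lay within the wild type range, and the difference was 0.53 (95% interval 0.10 to 0.96, limma adjusted p = 0.190), and 0.19 with the array SD as a covariate. Of its 6 probe sets 5 differed upward and 1 downward, from -0.09 to 0.53. Fzd1 differed most in the other direction, with 6.66, 6.37, 6.51 and 5.92 in null arrays, 6.68 in the heterozygote and 6.93, 7.26 and 6.73 in wild type arrays. All null arrays were lower than all wild type arrays on both of its probe sets, with differences of -0.61 and -0.38, and neither passed (limma adjusted p = 0.147 and 0.240). Ror1, a receptor tyrosine kinase for Wnt5a-type ligands, differed by -0.44 with overlapping groups (limma adjusted p = 0.276), by -0.06 with the array SD as a covariate and by -0.28 without null 3.

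The remaining receptors gave small differences. On the brightest probe set, Fzd2 differed by 0.37 and Fzd6 by 0.25, and Fzd4, Fzd5, Fzd7, Fzd8, Fzd9, Fzd10, Ror2 and Kremen1 by -0.22 to -0.02. The co-receptor genes Lrp5 and Lrp6 differed by -0.14 and -0.03. Fzd4, a receptor of brain endothelium, had probe sets in both directions: 1419301_at read higher in every null than in every wild type array by 0.34 (limma adjusted p = 0.217), while the brightest differed by -0.22.

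The intracellular core of the pathway showed no called change. Ctnnb1, which encodes beta-catenin, read 11.91, 11.96, 12.03 and 11.65 in null arrays, 12.23 in the heterozygote and 12.01, 11.55 and 11.92 in wild type arrays. The groups overlapped, and the difference was 0.06 with an interval of -0.28 to 0.40. Under other settings its sign turned, to -0.17 with the array SD as a covariate. The other 2 Ctnnb1 probe sets differed by 0.36 and 0.48, again with overlap. Apc, the scaffold of the destruction complex, averaged 11.93 ± 0.18 (SD, n = 4) in null and 11.57 ± 0.53 (SD, n = 3) in wild type arrays, with a heterozygote value of 12.13. That difference of 0.36 was within the spread of the wild type arrays (limma adjusted p = 0.372), and the other 3 Apc probe sets differed by 0.14 to 0.70. Axin1 differed by -0.04.

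Axin2, a feedback inhibitor whose transcription beta-catenin drives in many tissues and which therefore serves as a readout of the pathway, read 7.19, 6.93, 7.11 and 7.22 in null arrays, 7.36 in the heterozygote and 7.23, 7.29 and 7.20 in wild type arrays. Null 4 overlapped the wild type arrays, and the difference was -0.13 (95% interval -0.40 to 0.14, limma adjusted p = 0.524). An interval this narrow leaves outside it any change of 2-fold in either direction. The dimmer Axin2 probe set, 1421341_at, read 4.74 to 4.82 in null arrays, 4.65 in the heterozygote and 4.85 to 4.96 in wild type arrays. There every null array was below every wild type array, with a difference of -0.12 (limma adjusted p = 0.520). With the array SD as a covariate the brighter Axin2 probe set differed by -0.05, and without null 2 by -0.07.

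Promoters of the module were searched for the letters of factors named here, using RefSeq windows (GRCm38.p6) from 250 bases before to 50 bases after a gene start. The motifs were GGCCGG, the core of a GC-rich element that the Ctip2 protein has been reported to bind, and 4 forms of the TCF/LEF motif, namely CTTTGAA, the form CTTTGAT, the form CTTTGTA and the form CTTTGTT, each on both strands and with overlapping matches counted. Of the 50 genes 33 had a window, 41 windows in all. GGCCGG lay in 48.8% of these 41 windows, against 19.0% of all 32851 windows, but the module's windows also had a median GC content of 67.3%, against 52.7%. Above a GC content of 60.7% the shares were 61.3% of 31 module windows and 49.3% of 9141 windows. Their median GC content was 71.7% and 67.0%, so these sets were still not matched in GC content. A TCF/LEF form lay in 17.1% of the module windows and 16.9% of all, and above the same GC content in 12.9% (4 of 31) and 5.61%. Sfrp1, the only called member, has no window in the table, so the motifs cannot be set against the call. Shown are the windows of Axin2 (chr11:108920099-108920398, plus strand) and Ctnnb1 (chr9:120933150-120933449, plus strand), which hold 5 and 3 matches to GGCCGG on either strand and whose levels did not pass the test, and that of the inhibitor gene Dkk1 (chr19:30549447-30549746, minus strand), which holds 2 TCF/LEF forms. Capitals mark the matches, and the capital stretches of Axin2 include overlapping ones.
Axin2: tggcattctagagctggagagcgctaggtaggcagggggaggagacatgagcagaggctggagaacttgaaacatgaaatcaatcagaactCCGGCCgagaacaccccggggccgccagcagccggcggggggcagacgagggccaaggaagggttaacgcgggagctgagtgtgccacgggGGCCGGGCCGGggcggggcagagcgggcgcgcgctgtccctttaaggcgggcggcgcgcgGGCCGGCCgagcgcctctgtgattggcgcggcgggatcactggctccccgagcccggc
Ctnnb1: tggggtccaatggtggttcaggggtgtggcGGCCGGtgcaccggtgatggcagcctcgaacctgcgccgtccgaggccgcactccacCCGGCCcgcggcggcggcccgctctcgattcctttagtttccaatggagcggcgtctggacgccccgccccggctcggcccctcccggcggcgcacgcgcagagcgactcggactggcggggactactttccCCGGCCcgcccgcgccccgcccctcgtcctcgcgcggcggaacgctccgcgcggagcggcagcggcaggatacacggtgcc
Dkk1: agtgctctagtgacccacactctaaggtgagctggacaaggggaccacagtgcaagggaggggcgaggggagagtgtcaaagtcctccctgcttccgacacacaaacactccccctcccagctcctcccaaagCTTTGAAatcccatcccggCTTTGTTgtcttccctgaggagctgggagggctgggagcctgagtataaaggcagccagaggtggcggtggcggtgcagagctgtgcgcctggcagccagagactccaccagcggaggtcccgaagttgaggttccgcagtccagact
A match here is a run of letters and not a binding site. Dkk1 differed by -0.06 on its brightest probe set, which read 4.95 to 5.15 in null, 4.94 in the heterozygote and 5.03 to 5.20 in wild type arrays.

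All 8 probe sets of the TCF/LEF factors had negative differences, from -0.39 to -0.0015, and none was called. Over all probe sets 62% were negative, and 75% of those below the median level, where 5 of these 8 lie. Tcf7l1 1450117_at and Tcf7l2 1429428_at and 1429427_s_at were near 0, at -0.0023, -0.0015 and -0.0028. Tcf7l1, mainly a repressor of Wnt targets, read 7.85, 7.72, 7.70 and 8.07 in null arrays, 7.61 in the heterozygote and 7.81, 8.35 and 8.33 in wild type arrays, a difference of -0.33 with overlapping groups (limma adjusted p = 0.293). It was -0.04 with the array SD as a covariate and -0.51 without wild type 1. Tcf7l2, the factor most associated with thalamic neurons in the forebrain, differed by -0.29 on its brightest probe set, with null 3 at 6.88 and the heterozygote at 6.95 lowest of the 8 arrays. On another Tcf7l2 probe set, 1425229_a_at, every null array was below every wild type array (difference -0.39, limma adjusted p = 0.206). Lef1 differed by -0.13 (95% interval -0.42 to 0.16). With the array SD as a covariate the difference of Lef1 was 0.04 and that of the brightest Tcf7l2 probe set 0.003.

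The heterozygote often lay outside the wild type range. It was below every wild type array on 52 of the 104 member probe sets, above on 20 and within on 32. Over all probe sets it was below on 43.7% and above on 12334 of 45037. On ligands the count was 23 below, 1 above and 8 within. It was below on 73.9% of ligand probe sets under the median level, against 56.7% of all such probe sets. Over the median level these shares were 66.7% and 30.7%. On beta-catenin and its destruction complex the count was 2 below, 6 above and 3 within. Of these 11 probe sets 10 lie over the median level, where the heterozygote exceeded every wild type array on 9523 of all 22518 probe sets. With 1 heterozygote animal these values have no replicate check.

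Genes of the pathway outside the module were taken from 4 lists and counted by the brightest probe set of each gene. Of 115 measured genes 4 were higher and 1 lower, where 2.38% of all genes were higher and 0.676% lower, and the median difference was 0.01, against -0.08 over all genes. Among 27 further secreted, membrane and turnover components 1 rose and 26 were not called, with a list median of -0.12. The riser was Igfbp4, a binding protein of insulin-like growth factors that in frog and mouse heart cells also blocks Frizzled and Lrp6. Igfbp4 read 11.10, 11.58, 11.83 and 11.08 in null arrays, 11.33 in the heterozygote and 10.53, 10.46 and 10.14 in wild type arrays, 2.03-fold higher in null (limma adjusted p = 0.0325). The heterozygote sat within the null range, and with it among the controls the adjusted p was 0.323. Without wild type 2 or 3, or null 1, 2 or 3, the adjusted p of Igfbp4 was 0.0521 to 0.141. Over all probe sets the number called higher also fell in these fits, from 840 to between 210 and 516.

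Among 39 cytoplasmic and nuclear components 2 rose, 37 were not called and the list median was 0.21. Of these 39, 35 had means above the median probe set, against 16 of the 27 secreted, membrane and turnover genes. Differences varied with level, as described for the ligands. Dact1, which encodes a binding partner of Dishevelled, read 9.76, 10.05, 9.88 and 9.26 in null arrays, 8.91 in the heterozygote and 8.63, 8.40 and 8.59 in wild type arrays. It rose 2.29-fold with no overlap (difference 1.20, 95% interval 0.79 to 1.61, limma adjusted p = 0.0126). Without wild type 2 or 3 the adjusted p of Dact1 was 0.0609 or 0.0600, and with the array SD as a covariate 0.0584. Macf1, a large linker of actin and microtubules that has been placed in Axin transport, rose 1.90-fold, with null arrays at 10.14 to 10.90, the heterozygote at 10.50 and wild type arrays at 9.33 to 9.78. Its adjusted p was 0.0497 in limma and 0.450 with the heterozygote among the controls, and 0.0654 to 0.189 without wild type 2 or 3 or null 1, 2 or 3. As for Igfbp4, fewer of all probe sets were called higher in these fits.

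In the planar polarity and calcium branches 1 of 28 genes rose, 1 fell and 26 were not called, with a list median of 0.01. Prkca, the protein kinase C alpha of calcium signalling, read 9.40, 9.48, 9.27 and 9.45 in null arrays, 10.39 in the heterozygote and 10.38, 10.14 and 10.37 in wild type arrays. The groups were far apart relative to their SDs of 0.09 and 0.14, with the heterozygote at the wild type level, and Prkca fell 1.87-fold (limma adjusted p = 0.00761). It kept its call with any 1 array left out; without wild type 1 and null 2 together the adjusted p was 0.0529. Plcb4, a phospholipase C that acts below G protein coupled receptors, rose 1.71-fold (limma adjusted p = 0.0438), with null arrays at 7.44 to 7.91, the heterozygote at 7.25 and wild type arrays at 6.67 to 7.14. That call was lost without any 1 array other than null 3, at up to 0.126. Over all probe sets, calls of higher level also fell without wild type 2 or 3 or null 1 or 2. They rose from 840 to 1733 without wild type 1 and to 1713 without null 4.

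**Figure D5:**
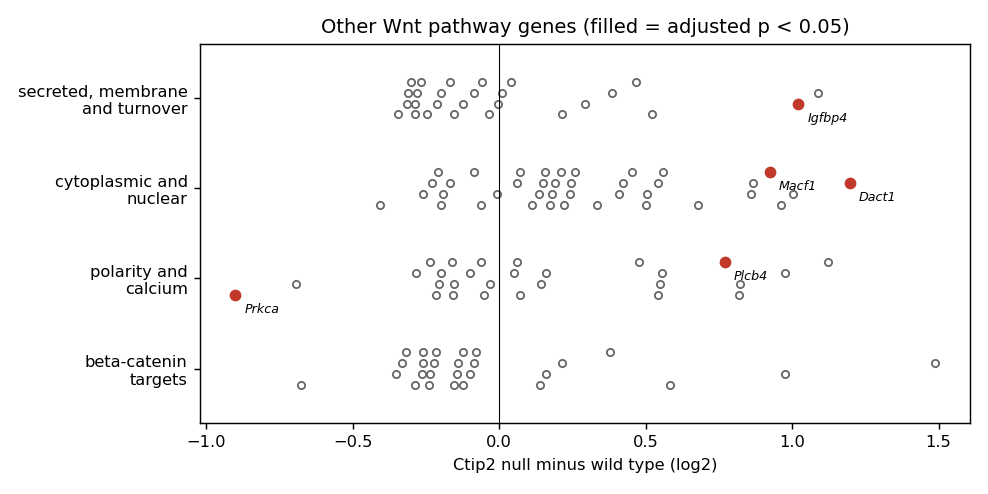
Difference between null and wild type striatum (x axis, log2) of pathway genes outside the module in 4 lists (rows), by the brightest probe set of each gene, filled where the adjusted p is below 0.05. Igfbp4, Dact1, Macf1 and Plcb4 lie to the right and Prkca, at -0.90, to the left.

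Of 27 genes known elsewhere as direct targets of beta-catenin, 0 were called by limma. At an unadjusted p of 0.05, 2244 of all 18193 genes were higher and 1797 lower. Of the 27, 4 were higher and 2 lower at that threshold, and the list median was -0.14. Means above the median probe set were found for 14 of the 27. The largest difference was that of Cd44, a surface receptor for hyaluronan, with 7.39, 5.95, 7.09 and 6.73 in null arrays, 5.49 in the heterozygote and 5.77, 5.41 and 4.71 in wild type arrays. All null arrays were higher, null 2 by the least, and the difference of 1.49 had an adjusted p of 0.0553 in limma. Cd44 passed, among other settings, when 1 probe set per gene was tested (0.0431), without wild type 1 (0.0389) and without null 2 (0.0304).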

How the data were processed

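Total RNA of 8 mouse striata was hybridised to Affymetrix arrays, 1 animal each. The deposited values are log2 expression per probe set, which the authors computed by RMA (Bioconductor), as the series' design text states; no source used here gives the version or which arrays were normalized together. RMA subtracts background, equalises arrays by quantiles and summarises probes by median polish; the table holds no detection calls, so dim probe sets may carry little transcript signal. Precision is limited by how few arrays there are.

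Of 45037 probe sets, 34945 carry 1 symbol. Members were those of the module's symbols (Wnt numbers with or without a letter). Null and wild type arrays were compared with limma 3.58.1 in R 4.3.3 (lmFit, eBayes, 7 arrays, no covariate), after a test of the procedure on simulated data, with Benjamini-Hochberg adjustment over all probe sets; a gene's brightest probe set is that of highest mean. The SAM score was computed with its constant estimated from the data, which came to 0. Figures used matplotlib 3.10.9. The members, gene lists, marker lists and alternatives were chosen with earlier results of these data known. Named with values in every array were called members and, per role, the 3 of largest difference and the brightest, and from each other list the called genes or else the largest difference; other genes were named to account for all members or after their values were seen. Replicate numbers did not pair the animals: deviations of equal-numbered arrays from their group means correlated at -0.25, -0.31 and -0.17.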

Additional observations from a re-analysis of the deposited data

How the results depend on the processing

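Counts of calls were small and moved with the settings. Of the 104 members, 1 was higher and 0 lower with an intensity trend and robust prior, with quantile normalization, without dim probe sets (50 members left) and with 1 probe set per gene (50 left). Of all probe sets tested in these settings, 1.86% to 4.07% were higher and 0.457% to 0.808% lower. Higher members numbered 9 by the SAM score, 4 with array weights and 0 with arrays centred on their median, the array SD as a covariate, the heterozygote among the controls or wild type 1 and null 2 left out together; lower members numbered 17 by the SAM score, 3 with array weights and 0 in the others. With single arrays left out, 0 to 2 members were higher and 0 to 1 lower, against 0.466% to 3.85% and 0.169% to 0.984% of all probe sets. Over the 115 other pathway genes, 4 higher and 1 lower, the counts were 27 and 10 by the SAM score, 15 and 2 with array weights, 2 higher with centred arrays, 1 higher with the array SD or the heterozygote among the controls, 1 and 0 without wild type 1 and null 2, and 0 to 8 higher and 1 to 2 lower with single arrays left out. For these settings the background is the shares given above, which are of all probe sets and not of genes. The replicate block, whose numbers do not pair the animals and which leaves null 4 without weight, gave 2 higher members and 10 higher pathway genes, with 0 and 1 lower. With this block, 3.77% of all probe sets were higher and 0.471% lower. It called Sfrp1 1460187_at (adjusted p = 0.00991) and not Plcb4 (0.0922). Wild type arrays 1, 2 and 3 each resembled most the deviations of a null array of another number.

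Signs turned only for named members that were not called: 1438620_x_at of Sfrp1 and Ctnnb1 under quantile normalization (-0.051 and -0.042), Apc, Ctnnb1, Lef1 and Tcf7l2 with the array SD as a covariate (-0.034, -0.17, 0.038 and 0.0029), and Ctnnb1 with the heterozygote among the controls (-0.044) or with single arrays left out (-0.080 to 0.15, negative only without wild type 2). Array weights also called Wnt7a, Fzd3, Wnt2, Wnt9b and Wnt10a, in a setting where 5.96% of all probe sets were called higher and 2.14% lower. Calls over all probe sets were higher in 80.5% of cases, against 67.0% with the array SD, 53.4% with the heterozygote among the controls and 41.2% by the SAM score. The causes were not tested.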
